A study of Mus musculus with 42 samples.

Results

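The genes described here encode axon guidance ligands and their receptors in the intima of the mouse carotid artery. They were taken from the gene symbols of the deposited table as all semaphorins, plexins, ephrins, Eph receptors, Slits, Robos, netrins and Unc5 receptors. Of 21674 genes, 66 carried such a symbol, and the 57 with a mean CPM (counts of the gene per 1000000 counts of the library) of at least 1 in at least 1 condition are reported. These are 7 semaphorins of class 3, 5 of class 4, 1 of class 5, 4 of class 6 and 1 of class 7, 8 plexins, 4 ephrin-A, 3 ephrin-B, 5 EphA and 5 EphB genes, 3 netrins, 4 Unc5 genes, 3 Slits and 4 Robos. The 9 others (Epha10, Epha5, Epha6, Epha8, Efna3, Ntn5, Plxnb3, Sema4g and Sema5b) stayed under 1 CPM in every condition. Just inside the limit lay Efnb3, with a highest group mean of 1.04 CPM in sham arteries, and just outside it lay Plxnb3, with 0.98 CPM in low-flow Rbfox2 EC-KO arteries. Ephb1, Ephb2, Robo3, Slit1 and Sema4f reached the limit in cultured cells but in no artery group.

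Guidance molecules were named for steering growing axons, and the same ligands and receptors pattern blood vessels. Secreted class 3 semaphorins act through plexins with neuropilin co-receptors, and class 4 to 7 semaphorins, most of them membrane-bound, bind plexins directly. Ephrins and Eph receptors are both held on the cell surface and signal in both directions at cell contacts, with ephrin-B2 known as an arterial and EphB4 as a venous marker in the embryo. Netrins bind Dcc, neogenin and Unc5 receptors, and Slits bind Robos, of which Robo4 is largely endothelial.

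RNA was flushed from the carotid intima after partial carotid ligation, a surgery that lowers flow in the left carotid artery, while the contralateral artery carries high flow. Untreated C57BL/6J mice aged 6 to 7 weeks gave 3 pools each of low-flow, high-flow and sham-operated arteries at 48 hr, and each pool combined 3 to 5 artery flushes. Other C57BL/6J mice were examined at 48 hr after a non-specific IgG (low and high flow), PBS liposomes (low and high flow), an anti-GPIba antibody that depletes platelets (low flow), an anti-Gr1 antibody that depletes granulocytes (low flow) or clodronate liposomes, which deplete macrophages (low flow), with 2 pools in each of these 7 groups and 1 further pool each of PBS and clodronate liposomes at low flow. At 7 days, mice of a C57 background aged 2 to 7 months were compared as Rbfox2 EC-KO, which carry Cdh5(PAC)-CreERT2 with Rosa26-mTmG and Rbfox2 lox/lox, and littermate controls with Rosa26-mTmG and Rbfox2 lox/lox, with 3 low-flow and 2 high-flow libraries of each genotype. The Cre is driven by an endothelial promoter, so both genotypes carried the reporter and the floxed alleles and only the EC-KO carried the Cre. Endothelial cultures (aortic eGFP+ cells, sorted CD31+ Icam2+ cells of Rbfox2 EC-KO and control mice, and a TetOn-SV40 aortic endothelial line) gave 1 library for each of 7 conditions. Of these the line gave 4, namely without additions, after 10% plasma, after platelets plus macrophages, and after all 3. Nothing in the labels says more of the replicates than that they are separate pools, so p-values measure the spread between these pools.

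Between 4064477 and 6794904 counts fell on genes in the untreated pools, 12286104 to 19035957 in the pools of treated mice, 10318685 to 18633538 at 7 days and 4989843 to 16394043 in the cultures. The flow label was checked with Klf2, a gene induced by laminar flow, which fell at low flow by 4.28 on the log2 scale in untreated mice (edgeR's quasi-likelihood test, Benjamini-Hochberg adjusted p = 4.98e-06) and was also lower in IgG-treated (0.00114) and PBS liposome-treated mice (0.000766). Among 12 endothelial, 14 macrophage and 8 fibroblast markers none was at 0 in all libraries of an artery group. Of 10 smooth muscle markers Des alone was, in the low-flow PBS liposome pools and in the single 100 bp pools with PBS and clodronate liposomes. Of 9 neutrophil markers Camp alone was, in 2 groups. The summed share of counts of the endothelial markers was 0.491% to 0.635% in the untreated low-flow pools and 1.07% to 1.23% at high flow. That of the macrophage markers was 0.213% to 0.331% against 0.00737% to 0.0174%, that of the neutrophil markers 0.0247% to 0.0487% against 0.000749% to 0.00240%, and that of the smooth muscle markers 0.234% to 0.433% against 0.0565% to 0.0660%. Fibroblast markers took 0.0108% to 0.0563% at low and 0.143% to 0.178% at high flow, and the part of these cells in the results on guidance genes was not tested. In such bulk samples, fewer cells of a type and less RNA per cell cannot be told apart. Actb took 10.6% and 10.1% of the counts of untreated low-flow pools a and b, but 3.74% in low-flow pool c and 0.699% to 1.10% at high flow, and the TMM factors of pools a and b were 0.569 and 0.549 against 1.115 to 1.275 in the 7 others.

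Compared per length, ephrins were the most abundant guidance transcripts of the untreated high-flow intima. Efna5, a ligand of EphA receptors, had 282.7 ± 38.7 FPKM (CPM per kilobase of effective length, SD, n = 3), and Efna1, an ephrin-A that is induced by inflammatory cytokines in endothelium, had 120.9 ± 14.0. The arterial ephrin Efnb2 had 48.2 ± 12.5, the netrin Ntn1 21.2 ± 3.17, and Sema3f, a secreted neuropilin-2 ligand, 16.3 ± 1.70 FPKM. The order differed in the high-flow pools of IgG-treated mice, where Sema3f had 134.8 ± 8.36 FPKM (SD, n = 2), Efnb2 121.9 ± 6.68, Ntn1 84.3 ± 10.6, the basement membrane netrin Ntn4 75.5 ± 13.1, Efna1 59.9 ± 22.2 and Efna5 54.2 ± 3.09. Within 1 SD, Sema3f could not be set apart from Efnb2, nor any of Ntn1, Ntn4 and Efna1 from each other, nor Efna1 from Efna5. The untreated pools and the IgG pools come from library sets that are compared at the end.

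Between low and high flow at 48 hr in untreated mice, 14 of the 30 guidance genes tested passed the threshold (edgeR's quasi-likelihood test, Benjamini-Hochberg adjusted p under 0.05), 5 higher and 9 lower at low flow. Among all 11236 genes tested the share called was 46.2%, with 23.6% higher and 22.6% lower, and the share of the guidance genes lies near it. Their median log2 fold-change was −0.25, against −0.07 over all genes. The genes that fell were Ntn1 and Unc5c of the netrin pathway, Sema3d and Sema3f with the plexins Plxna2 and Plxna4, and the Eph receptors Epha4, Ephb4 and Ephb6. Those that rose were Sema4a, Plxnb2, Plxnd1, Efna1 and Robo4. Values of single libraries are given below as scaled CPM, which are CPM after TMM scaling of the library totals, in the order of the pools a, b and c.

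Of the ligands, Ntn1, a secreted laminin-related guidance cue (mm9 chr11:68022866-68214325, minus strand), had 18.6, 10.7 and 28 scaled CPM at low flow, 113, 111 and 83.2 at high flow and 93.5, 106 and 70.4 in sham arteries. All 3 low-flow pools lay below every other pool, and Ntn1 fell by 2.38 on the log2 scale (SE 0.29, adjusted p = 9.25e-05 by edgeR's quasi-likelihood test). Sema3f (chr9:107583833-107612806, minus strand) had 10.3, 11.5 and 14.2 scaled CPM at low flow, 42.5, 49.2 and 44.4 at high flow and 31.9, 43 and 29.8 in sham arteries. The low-flow pools were again the lowest 3 of the 9, with a fall of 1.91 (SE 0.20, adjusted p = 2.7e-05). Sema3d, another secreted class 3 semaphorin (chr5:12383166-12588943, plus strand), had 0.517, 0.41 and 1.09 scaled CPM at low flow, 5.47, 7.19 and 5.39 at high flow and 4.7, 3.86 and 2.96 in sham arteries. The groups did not overlap, and Sema3d fell by 2.95 (SE 0.42, adjusted p = 0.000255).

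Sema4a, a membrane semaphorin also known from immune cells (chr3:88239881-88265104, minus strand), moved the other way, with 9.3, 33.6 and 17.1 scaled CPM at low flow, 0.21, 1.25 and 0.929 at high flow and 0.391, 0.772 and 2.96 in sham arteries. Every low-flow pool was above every other pool, and the rise of 4.46 on the log2 scale (SE 0.58, adjusted p = 0.00013) was the largest of the guidance genes called in this comparison. In the same pools, 10 of 12 macrophage markers tested were called and all 10 were higher (median log2 fold-change of the 12, 3.40), as were 6 of 6 neutrophil markers (median 5.85), and the part of these cells in the rise of Sema4a was not tested. Efna1 had 271, 322 and 172 scaled CPM at low and 159, 119 and 141 at high flow. Its groups did not overlap, with a rise of 0.86 (SE 0.26, adjusted p = 0.0204), but the call was lost without low-flow pool a (0.82) or b (0.67) or high-flow pool b (0.75) or c (0.86).

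Of the receptors, Epha4, a receptor for both ephrin classes (chr1:77363760-77511663, minus strand), had 12.9, 7.38 and 17.1 scaled CPM at low flow, 34.7, 41.6 and 39 at high flow and 40.3, 32.2 and 36.2 in sham arteries. The 3 low-flow pools were the lowest of the 9, and Epha4 fell by 1.58 (SE 0.26, adjusted p = 0.000608). Ephb4, the receptor of ephrin-B2 (chr5:137791337-137819897, plus strand), had 22.7, 20.5 and 21 scaled CPM at low flow, 34.7, 39.7 and 36.8 at high flow and 37.4, 41.3 and 31.5 in sham arteries. Its low-flow pools differed little among themselves and lay below the others, with a fall of 0.80 (SE 0.17, adjusted p = 0.00324). Ephb6, an Eph receptor whose kinase domain is inactive, had 0.259, 0.82 and 0.939 scaled CPM at low against 3.16, 2.08 and 1.86 at high flow. It fell by 1.71 (SE 0.51, adjusted p = 0.0179), a call lost without low-flow pool a (−1.35) or high-flow pool a (−1.44). Unc5c, a netrin receptor, had 0, 0.82 and 0.782 scaled CPM at low against 2.31, 2.63 and 2.79 at high flow and fell by 2.20 (SE 0.58, adjusted p = 0.0103).

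Plexins went in both directions. Plxna2, a receptor of semaphorins of classes 3 and 6, had 53.5, 39.8 and 68.7 scaled CPM at low against 90.7, 129 and 110 at high flow and fell by 1.02 (SE 0.23, adjusted p = 0.00448). Plxna4, a receptor of the same kind, fell by 0.61 (adjusted p = 0.0449), the only called guidance gene here whose groups overlapped, and it lost the call without low-flow pool a (−0.53) or b (−0.47) or high-flow pool b (−0.54) or c (−0.57). Plxnb2, a receptor of class 4 semaphorins, had 27.4, 18.9 and 28.8 scaled CPM at low against 10.5, 11.8 and 11.2 at high flow, without overlap, and rose by 1.17 (SE 0.22, adjusted p = 0.0014). Plxnd1, the plexin of developing vessels that binds Sema3e, had 59.2, 57 and 51.6 scaled CPM at low against 29, 33.2 and 34.9 at high flow and rose by 0.78 (SE 0.16, adjusted p = 0.0032). Robo4 had 7.5, 8.2 and 5.63 scaled CPM at low against 3.37, 3.73 and 2.97 at high flow, and its rise of 1.03 (SE 0.30, adjusted p = 0.0168) was not called without low-flow pool a (0.98) or b (0.94) or high-flow pool c (0.94).

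The calls of some of the smaller differences depended on the scaling. With library totals alone, an alternative added after the data were seen, 14 guidance genes were called again, but 1 was higher and 13 were lower, and the median log2 fold-change of all genes moved from −0.07 to −0.69. Sema4a was the one that stayed higher, while Efna1 (0.11), Plxnb2 (0.58), Plxnd1 (0.12) and Robo4 (0.36) lost their calls. Efnb2 (−1.30), Efna5 (−0.95), Epha1 (−1.61) and Unc5d (−2.09) gained one. Against sham arteries Plxnb2 lost its call and Efnb2 (−1.55) and Unc5d (−1.92) gained one. With TMM, Efnb2 (chr8:8617434-8661239, minus strand) had 154, 57 and 113 scaled CPM at low against 132, 212 and 173 at high flow, the ranges overlapped, and the log2 fold-change of −0.68 did not pass (adjusted p = 0.108).

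Members known in endothelium that did not pass included Unc5b, a netrin receptor of tip cells, with 9.82, 10.7 and 11.7 scaled CPM at low against 13.7, 10.1 and 11 at high flow. Efna5 had 1140, 886 and 960 at low and 1190, 1390 and 1095 at high flow, and the ranges overlapped. Sema4d, a membrane semaphorin that binds Plxnb1, had 17.1, 22.1 and 17.4 against 11.8, 25.5 and 22.9, Sema6a 21.7, 15.2 and 22.7 against 21.1, 27.7 and 27.7, and Epha2 13.7, 10.2 and 17.1 against 10.1, 13.1 and 7.25. Sema3a, Sema3c, Sema7a, Plxnb1, Slit2, Slit3 and Robo1 had too few counts to be tested in these pools. The highest pool of Slit2 and Slit3 reached 1.3 and 1.66 scaled CPM, both at high flow, and Plxnb1 had 1.55, 0.41 and 1.09 at low flow and no count in the 3 high-flow pools.

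**Figure D1:**
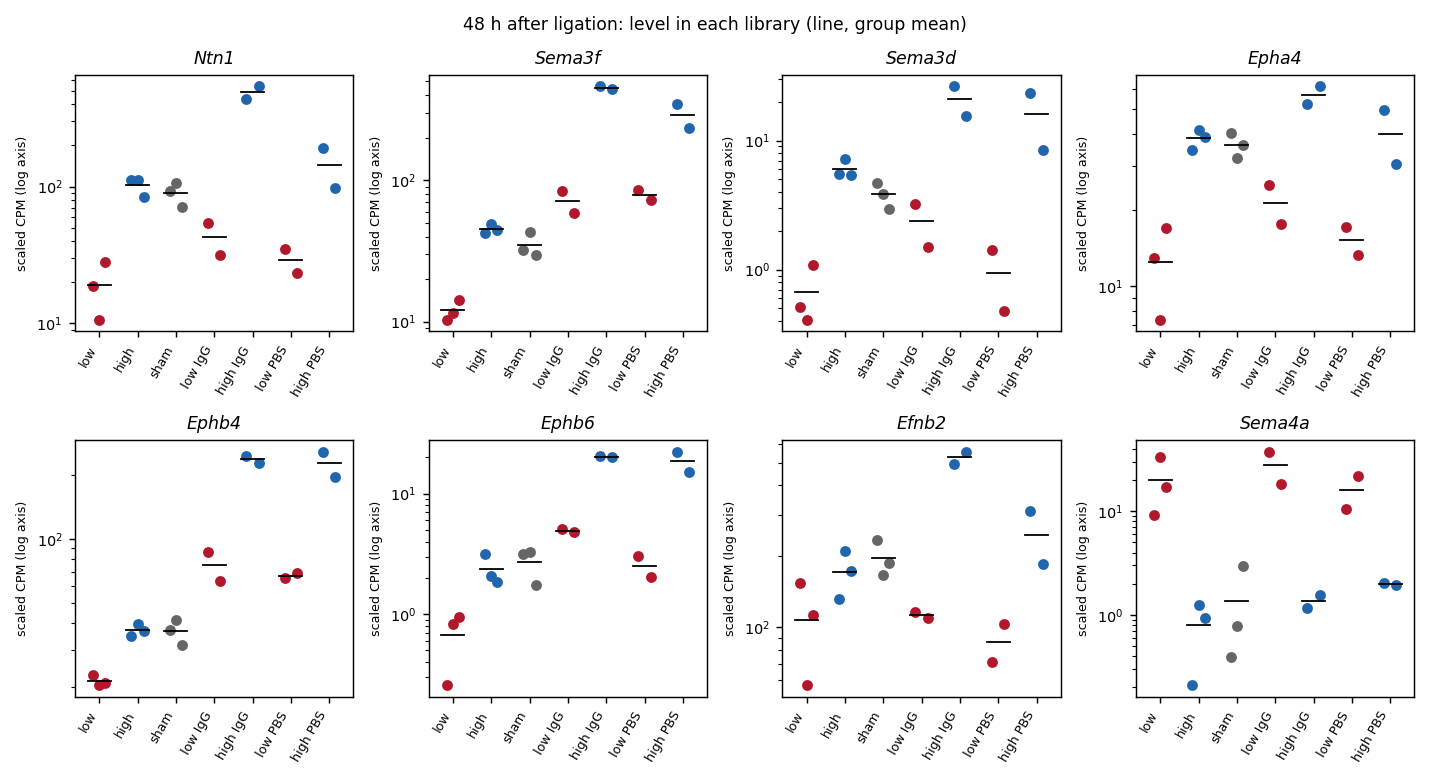
Scaled CPM on a log axis of 8 guidance genes in each 48 hr library, in untreated, IgG-treated and PBS liposome-treated mice, with low flow in red, high flow in blue and sham in grey, 1 point a pool. Ntn1, Sema3f, Sema3d, Epha4, Ephb4 and Ephb6 lie lower and Sema4a higher at low flow in all 3 sets, as with Ntn1 at 10.7 to 28 against 83.2 to 113 in untreated mice.

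Against sham-operated arteries, which share the low-flow pools with the comparison above, 11 of 28 guidance genes tested passed, 2 higher and 9 lower, where 40.3% of all genes were called (20.6% higher, 19.7% lower). The share is again near that of all genes, and the median was −0.40 against −0.04. Ntn1 fell by 2.24 (adjusted p = 0.00198), Sema3d by 2.32 (0.00541), Sema3f by 1.56 (0.00196), Epha4 by 1.52 (0.00376) and Ephb4 by 0.82 (0.00872), and Sema4a rose by 3.71 (0.00403), all by edgeR's quasi-likelihood test with Benjamini-Hochberg adjustment. Ntn3 (−1.62), Plxna2 (−0.78), Plxna4 (−0.96) and Sema6a (−0.64) fell and Plxnb2 rose (0.68). Of these, Ntn3, Plxna2, Plxnb2 and Sema6a lost the call when 1 pool was left out, with 7 calls left without sham pool a, and Plxnb2 also with library totals alone (0.05). In the same comparison 8 of 13 macrophage and 6 of 6 neutrophil markers tested rose, and of 12 endothelial markers 2 rose and 4 fell. The endothelial markers took 0.980% to 1.27% of the counts in sham arteries, against the 0.491% to 0.635% at low flow, and the part of these cells was not tested. Between high flow and sham, edgeR called 0 of 29 guidance genes and 0% of all genes, and DESeq2 called 0 guidance genes as well. By edgeR 3 guidance genes had an unadjusted p under 0.05, against 868 of all genes.

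To show the start regions of genes that the flow comparisons at 48 hr turn on, the 300 bases around the transcription start (250 before, 50 after) were taken from a RefSeq table, in which 48 of the 57 genes were matched by symbol. It was searched for CACCC on both strands, the core of the letters that Krüppel-like factors such as Klf2 recognise. At least 1 CACCC was found in 40 of the 48 windows (83.3%), against 56.7% of the windows of all genes. It was in 14 of the 16 windows of genes called lower and in 9 of the 10 of genes called higher in at least 1 comparison of low flow with high flow or sham at 48 hr or 7 days, where Sema6b counts by the 7 day controls alone. The letters TGANTCA, which AP-1 recognises, were in 2 of the 48 windows (4.17%) and in 7.93% of those of all genes. A match is a description of these letters and not a binding site. The windows of Sema3d, Epha4 and Ephb4, which fell in the untreated comparisons, of Efnb2, which fell in IgG-treated and PBS liposome-treated mice but did not pass in untreated ones, and of Sema4a, which rose, are shown on GRCm38.p6, 5′ to 3′ on the strand of the gene, with CACCC or its complement GGGTG in capitals: Sema3d (chr5:12382916-12383215, plus strand, 1 match), Epha4 (chr1:77515039-77515338, minus strand, 4 matches), Ephb4 (chr5:137349859-137350158, plus strand, 2 matches), Efnb2 (chr8:8661193-8661492, minus strand, 1 match) and Sema4a (chr3:88461133-88461432, minus strand, 1 match).
Sema3d: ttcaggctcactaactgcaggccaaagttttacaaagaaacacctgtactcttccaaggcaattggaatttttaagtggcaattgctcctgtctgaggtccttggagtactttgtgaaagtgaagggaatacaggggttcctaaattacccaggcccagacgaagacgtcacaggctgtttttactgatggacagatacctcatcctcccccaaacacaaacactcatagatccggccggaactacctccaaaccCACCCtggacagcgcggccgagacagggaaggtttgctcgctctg
Epha4: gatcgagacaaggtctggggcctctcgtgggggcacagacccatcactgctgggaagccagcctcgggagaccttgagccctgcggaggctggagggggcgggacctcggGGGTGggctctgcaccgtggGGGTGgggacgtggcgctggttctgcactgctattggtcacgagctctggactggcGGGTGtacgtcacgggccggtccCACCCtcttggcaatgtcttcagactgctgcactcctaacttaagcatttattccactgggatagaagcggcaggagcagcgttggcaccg
Ephb4: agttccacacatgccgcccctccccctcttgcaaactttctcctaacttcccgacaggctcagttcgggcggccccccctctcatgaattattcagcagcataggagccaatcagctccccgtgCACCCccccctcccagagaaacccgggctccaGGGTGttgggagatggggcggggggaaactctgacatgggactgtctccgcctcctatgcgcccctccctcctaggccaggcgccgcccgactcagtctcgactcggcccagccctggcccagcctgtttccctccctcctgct
Efnb2: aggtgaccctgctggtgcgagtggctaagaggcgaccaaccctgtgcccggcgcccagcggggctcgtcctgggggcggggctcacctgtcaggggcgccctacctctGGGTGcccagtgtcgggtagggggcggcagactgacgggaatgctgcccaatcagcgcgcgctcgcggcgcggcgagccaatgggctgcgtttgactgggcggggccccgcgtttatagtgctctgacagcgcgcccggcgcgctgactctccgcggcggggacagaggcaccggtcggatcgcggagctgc
Sema4a: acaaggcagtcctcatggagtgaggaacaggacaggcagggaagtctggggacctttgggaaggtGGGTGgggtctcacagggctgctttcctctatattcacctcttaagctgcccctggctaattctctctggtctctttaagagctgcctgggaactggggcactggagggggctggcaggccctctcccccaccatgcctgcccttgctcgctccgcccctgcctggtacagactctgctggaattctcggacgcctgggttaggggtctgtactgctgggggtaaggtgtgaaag
RefSeq windows of Slit1, Unc5d, Efnb3, Ntn1, Plxna1, Plxna4, Sema3b, Sema3f and Sema6a were not used here.

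The same question could be asked in treated mice with libraries that share no pool with the untreated ones. In IgG-treated mice 23 of 47 guidance genes tested passed, 5 higher and 18 lower at low flow, where 40.5% of all 13401 genes were called (22.8% higher, 17.7% lower), and the median was −1.17 against 0.07. In PBS liposome-treated mice 14 of 47 passed, 4 higher and 10 lower, where 35% of all genes were called (19.6% higher, 15.5% lower), and the median was −0.53 against 0.06. In these mice the low-flow libraries carry an earlier date in the names of their read files than the high-flow libraries, so flow and date cannot be told apart. The macrophage markers took 0.221% to 0.239% of the counts at low flow with IgG against 0.00876% to 0.0281% at high flow, and 10 of 14 of them rose with IgG and 7 of 14 with PBS liposomes. Neutrophil markers took 0.0117% to 0.0340% against 0.000806% to 0.00636% with IgG, where 5 of 9 rose (median log2 fold-change of the 9, 3.25), and 0.0101% to 0.0298% against 0.000618% to 0.00211% with PBS liposomes, where 6 of 9 rose (median 5.37). Endothelial markers took 0.571% to 0.700% at low and 1.89% to 1.90% at high flow with IgG, with 2 of 12 higher and 6 lower, and 0.545% against 1.14% to 1.47% with PBS liposomes, with 2 higher and 5 lower. The part of these cells was not tested.

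Of the class 3 semaphorins, 3 of 6 tested fell at low flow with IgG and 2 of 6 with PBS liposomes, and of the netrins 2 of 3 and 1 of 3. Ntn1 had 53.9 and 31.9 scaled CPM at low and 435 and 542 at high flow with IgG, a fall of 3.51 (adjusted p = 0.00084 by edgeR's quasi-likelihood test), and 34.8 and 23.5 against 190 and 97.2 with PBS liposomes, a fall of 2.30 (0.00372). Sema3f had 84.5 and 59 against 463 and 442 with IgG, a fall of 2.66 (0.000576), and 84.7 and 72.8 against 344 and 235 with PBS liposomes, a fall of 1.88 (0.000907). Neither gene overlapped between flows in either treatment. Sema3d had 3.22 and 1.5 against 26.4 and 15.4 with IgG, a fall of 3.15 (0.00523), and 1.41 and 0.477 against 23.5 and 8.43 with PBS liposomes, a fall of 4.08 (0.00231). With IgG, Sema3g, a class 3 semaphorin of arterial endothelium, was also called, with 5.79 and 5.39 at low against 15.1 and 37.7 at high flow, a fall of 2.24 (0.00895). Ntn4 was not called, with 238 and 188 scaled CPM at low and 194 and 158 at high flow with IgG.

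Efnb2 fell in both treatments. Of the EphA receptors 2 of 5 tested fell with IgG and 1 of 5 with PBS liposomes, and of the EphB receptors 2 of 3 in each. Epha2 was called in neither treatment. Efnb2 had 116 and 110 scaled CPM at low against 495 and 557 at high flow with IgG, a fall of 2.22 (adjusted p = 0.00114 by edgeR's quasi-likelihood test), and 71.2 and 103 against 310 and 185 with PBS liposomes, a fall of 1.51 (0.00526). Ephb4 had 86.3 and 63.5 against 245 and 227 with IgG, a fall of 1.66 (0.00129), and 65.3 and 68.8 against 257 and 196 with PBS liposomes, a fall of 1.76 (0.000937). No low-flow pool of either gene reached a high-flow pool. Ephb6 had 5.09 and 4.76 against 20.4 and 20 with IgG, a fall of 2.04 (0.00253), and 3.01 and 2.03 against 22.3 and 15.2 with PBS liposomes, a fall of 2.90 (0.000593). Epha4 had 25.1 and 17.6 against 52.7 and 61.8 with IgG, a fall of 1.42 (0.00861), and 17.2 and 13.3 against 49.6 and 30.4 with PBS liposomes, a fall of 1.39 (0.0108). Efna5 fell by 1.49 with IgG (0.00341) and by 1.06 with PBS liposomes (0.0165), whereas its untreated ranges overlapped.

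The members that rose were fewer. Sema4a had 37.9 and 18.5 scaled CPM at low against 1.15 and 1.55 at high flow with IgG, a rise of 4.37 (adjusted p = 0.000942 by edgeR's quasi-likelihood test), and 10.5 and 21.8 against 2.02 and 1.95 with PBS liposomes, a rise of 3.02 (0.00314). Efna4, an ephrin-A of low level, had 2.22 and 3.68 at low flow with IgG and no count in either high-flow pool, at least 12.3-fold higher in scaled CPM against a floor of 3 counts per library (0.00172). With PBS liposomes Efna4 had 3.39 and 6.21 against 0.289 and 0.0697, a rise of 4.69 (0.00368). Plxnc1, the receptor of Sema7a, had 8.6 and 3.37 at low flow with IgG against 0 and 0.232 at high flow, from 0 and 3 counts, and was called (0.00276). Sema7a itself was called with PBS liposomes, with 10.2 and 6.98 against 1.59 and 2.58, a rise of 2.04 (0.0191). With IgG its ranges overlapped, at 7.08 and 3.42 against 4.78 and 9.22. Efna1 rose by 1.20 with IgG (0.0142) and had a log2 fold-change of 0.64 with PBS liposomes that did not pass (0.146).

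Of other members known in endothelium, Plxna2 had 117 and 86.1 scaled CPM at low against 310 and 478 at high flow with IgG and fell by 1.96 (adjusted p = 0.00608 by edgeR's quasi-likelihood test), but had 116 and 66.8 against 150 and 89.2 with PBS liposomes, where the ranges overlapped. Sema4d had 38 and 19.1 against 97.4 and 68.2 with IgG, a fall of 1.54 (0.0115), and 14.7 and 17.2 against 68.2 and 41 with PBS liposomes, a fall of 1.78 (0.00688). Robo1, a Slit receptor, had 1.81 and 0.984 against 3.79 and 10.3 with IgG and fell by 2.33 (0.0247), and had 1.15 and 0.955 against 1.3 and 0.697 with PBS liposomes. Robo4, Plxnb2 and Plxnd1, which rose in untreated mice, were not called in either treatment, with Robo4 at 13.3 and 17.3 against 13.7 and 9.84 with IgG. Slit2 and Slit3 were not called either, and the pools of 1 group differed widely, such as Slit2 with 0 and 9.53 in the 2 high-flow IgG pools.

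The remaining calls with IgG were Sema4c (−2.41), Sema5a (−2.94), Sema6d (−1.15), Epha1 (−2.22), Ntn3 (−2.39) and Plxna4 (−1.12), which fell, and Sema4b (1.72), which rose. With PBS liposomes they were Sema6d (−0.75), which fell, and Plxna1 (0.88), which rose. Without low-flow IgG library 2, 9 of the 23 calls were left (not Epha4, Sema3d, Plxna2, Sema3g or Sema4d, among others), and without high-flow PBS liposome library 1, 8 of the 14 were left (not Efnb2, Epha4, Efna5, Sema4d, Sema6d or Sema7a). Ntn1, Sema3f, Ephb4, Ephb6, Sema4a and Efna4 kept their calls in both treatments when any 1 of the 4 libraries compared was left out. A group left with 1 library was assumed there to vary like the other groups of the fit.

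Across the untreated, IgG and PBS liposome comparisons, 28 guidance genes were tested in all 3. 6 fell in all 3 (Epha4, Ephb4, Ephb6, Ntn1, Sema3d and Sema3f) and 1 rose in all 3 (Sema4a). 6 fell in exactly 2 (Efna5, Efnb2, Plxna2, Plxna4, Sema4d and Sema6d), 2 rose in exactly 2 (Efna1 and Efna4), 7 fell in 1, 7 rose in 1 and 0 were called in opposite directions. Of the 57 genes, 20 were tested at least once and called in none, among them Ntn4, Unc5b, Epha2, Sema6a and Sema3a, and 8 were tested in none.

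**Figure D2:**
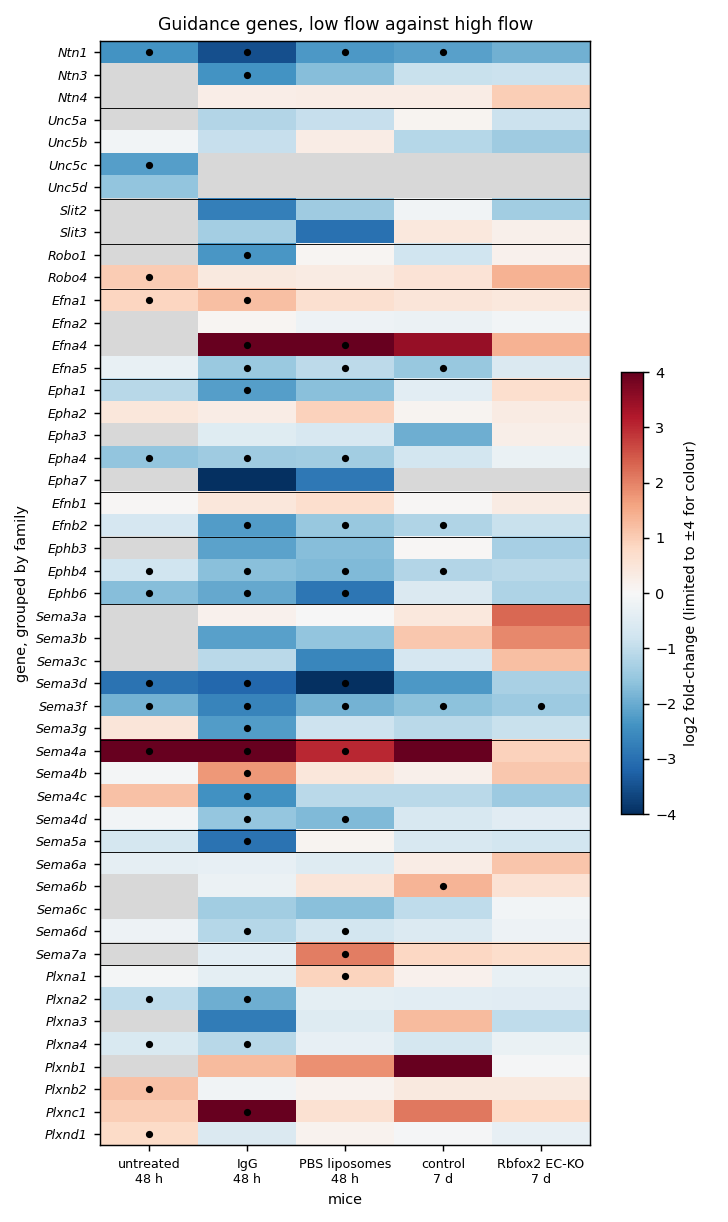
Log2 fold-change of low against high flow for each guidance gene (vertical, by family) in untreated, IgG and PBS liposome mice at 48 hr and in control and EC-KO mice at 7 days (horizontal), with the colour limited to −4 and 4, a dot for an adjusted p under 0.05 and grey for genes not tested. Ntn1, Sema3f, Sema3d, Epha4, Ephb4 and Ephb6 are dotted and lower in all 3 comparisons at 48 hr, and Sema4a is dotted and higher.

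To ask whether recruited cells bear on the low-flow levels, depleted mice were compared with their controls at low flow. With the platelet-depleting anti-GPIba antibody, 8 of 47 guidance genes passed against IgG, 6 higher and 2 lower, where 16.5% of all genes were called (6.05% higher, 10.5% lower). The median was 0.41 against −0.04 over all genes. These low-flow IgG pools also enter the flow comparison of IgG-treated mice, so their values stand side by side here and are not independent.

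Eph receptors made up 4 of the 6 that rose. Ephb6 had 20.7 and 22.1 scaled CPM with anti-GPIba against 5.09 and 4.76 with IgG at low flow, a rise of 2.12 (adjusted p = 0.0155 by edgeR's quasi-likelihood test), and its high-flow IgG pools had 20.4 and 20. Epha4 had 49.6 and 49.5 against 25.1 and 17.6, a rise of 1.22 (0.0386), with 52.7 and 61.8 at high flow. Ephb4 had 168 and 123 against 86.3 and 63.5, a rise of 0.96 (0.0338), with 245 and 227 at high flow. The depleted pools of Ephb6 thus lay just above its high-flow pools, and those of Epha4 and Ephb4 lay between the low-flow and high-flow IgG pools. Epha1, another EphA receptor, had 4.21 and 3.92 against 1.4 and 0.57, a rise of 2.04 (0.0499).

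The semaphorins Sema5a and Sema6a, both membrane-bound, rose as well. Sema5a had 2.81 and 2.91 scaled CPM with anti-GPIba against 0.702 and 0.311 with IgG, a rise of 2.49 (adjusted p = 0.041 by edgeR's quasi-likelihood test). Sema6a had 133 and 127 against 68.6 and 30.4, a rise of 1.39 (0.0371), with 63.8 and 61.3 at high flow, so its depleted pools were above both IgG groups. Sema4a had 2 and 2.33 against 37.9 and 18.5, a fall of 3.70 (0.0134), and Efna4 0.378 and 0.37 against 2.22 and 3.68, a fall of 2.95 (0.0371). Both had been higher at low than at high flow with IgG. Ntn1 had 96.1 and 112 against 53.9 and 31.9 (log2 fold-change 1.27, adjusted p = 0.0648) and Sema3f 142 and 110 against 84.5 and 59 (0.81, 0.0564). Neither passed the threshold, although no depleted pool overlapped an IgG pool.

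In the same pools the macrophage markers took 0.0244% to 0.0341% of the counts with anti-GPIba against 0.221% to 0.239% with IgG, with 5 of 14 lower and called (median log2 fold-change −2.10). The neutrophil markers took 0.000787% to 0.00132% against 0.0117% to 0.0340%, with 5 of 9 lower and called (median −4.17). The endothelial markers took 1.22% against 0.571% to 0.700%, with 2 of 12 higher and called, and of 8 platelet markers 1 rose and 1 fell. The part of these cells in the results was not tested. Without low-flow IgG library 1 or anti-GPIba library 1 or 2, 0 of the 8 calls were left, and without low-flow IgG library 2 the 1 call left was Sema4a. With the 2 groups fitted alone 17 guidance genes passed, a count to which the 16.5% of all genes, taken from the main fit, does not apply.

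With anti-Gr1, edgeR called 0 of 47 guidance genes and 0% of all genes. The median log2 fold-change of the guidance genes was 0.47, against 0.0009 over all genes, so a shift like the 0.41 with anti-GPIba was also seen here. DESeq2 called 1 guidance gene, and 9 had an unadjusted p under 0.05, against 2432 of all genes. Ephb6 had 14.9 and 17.5 scaled CPM against 5.09 and 4.76 with IgG (log2 fold-change 1.71), Sema5a 5.16 and 1.82 against 0.702 and 0.311 (2.78) and Epha1 4.57 and 3.25 against 1.4 and 0.57 (1.98), each with an adjusted p of 0.243 by edgeR's quasi-likelihood test. The groups did not overlap for any of these 3 genes, and they did not pass. Sema4a had 5.75 and 12.5 against 37.9 and 18.5. Neutrophil markers took 0.00168% to 0.00305% of the counts with anti-Gr1 against 0.0117% to 0.0340% with IgG. All 9 had a log2 fold-change below 0 (median −3.20), of which edgeR called 0 and 4 had an unadjusted p under 0.05. Macrophage markers took 0.131% to 0.132% against 0.221% to 0.239% (median log2 fold-change 0.08), and endothelial markers 0.944% to 1.03% against 0.571% to 0.700%. The part of these cells was not tested.

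With clodronate liposomes, edgeR called 0 of 47 guidance genes against PBS liposomes, where 0.119% of all genes were called. The median log2 fold-change of the guidance genes was 0.36, against −0.02 over all genes. DESeq2 called 3 guidance genes, and 9 had an unadjusted p under 0.05 by edgeR, against 2002 of all genes. Sema4a had 1.83 and 3.71 scaled CPM against 10.5 and 21.8 (log2 fold-change −2.54, adjusted p = 0.114), Ephb6 9.09 and 4.69 against 3.01 and 2.03 (1.45, 0.156) and Ntn1 122 and 47.3 against 34.8 and 23.5 (1.54, 0.205), all by edgeR's quasi-likelihood test. The groups did not overlap for these 3 genes, which did not pass. The further single pools, sequenced with 100 bp reads, had 13.4 CPM of Sema4a with PBS liposomes and 0.508 CPM, from 3 counts, with clodronate. Ephb6 had 0.957 CPM, from 5 counts, in the PBS pool and 2.71 CPM in the clodronate pool, and Ntn1 33.3 and 70.2 CPM. Macrophage markers took 0.0236% to 0.0252% of the counts with clodronate against 0.133% to 0.220% with PBS liposomes, with 2 of 14 lower and called. Neutrophil markers took 0.00283% to 0.00338% against 0.0101% to 0.0298%, and endothelial markers 0.748% to 1.13% against 0.545%, and the part of these cells was not tested.

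**Figure D3:**
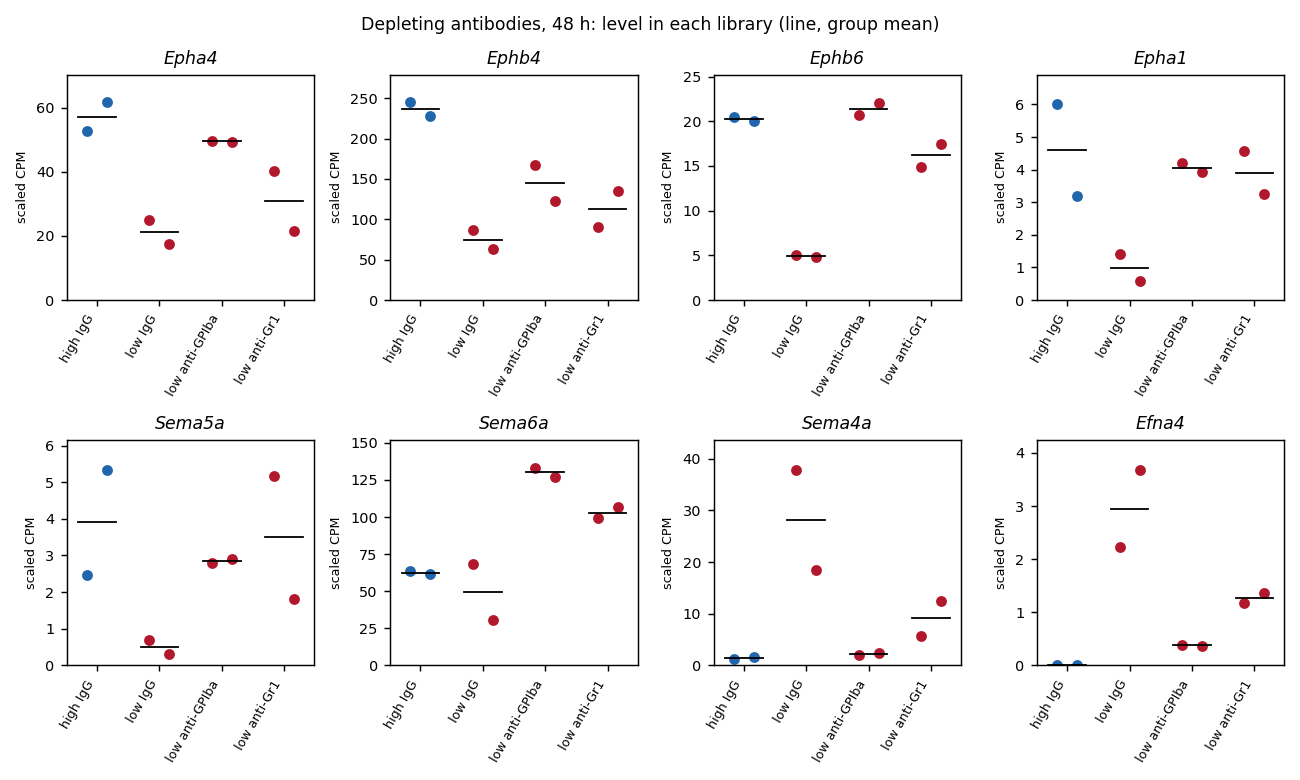
Scaled CPM (linear axis) of 8 guidance genes in the 2 pools each of high flow with IgG, low flow with IgG, low flow with anti-GPIba and low flow with anti-Gr1, 1 point a pool. Ephb6 lies at 20.7 and 22.1 with anti-GPIba and at 5.09 and 4.76 with IgG at low flow, while Sema4a lies at 2 and 2.33 against 37.9 and 18.5.

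At 7 days, the targeted gene was looked at first. Rbfox2, an RNA-binding splicing regulator, had 1.14 to 7.30 CPM in the 5 EC-KO libraries and 18.4 to 38.5 CPM in the 5 control libraries, without overlap, as the labels say. In control mice 6 of 46 guidance genes passed between low and high flow, 1 higher and 5 lower, where 2.4% of all genes were called (0.959% higher, 1.44% lower), and the median was −0.19 against 0.04. With these 2 groups fitted alone, edgeR called 0 guidance genes (lowest adjusted p = 0.184), and 10 had an unadjusted p under 0.05. Libraries are given in the order 1, 4 and 5 at low flow and 4 and 5 at high flow, after the numbers in the deposited table.

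The 5 that fell were again a netrin, a class 3 semaphorin, ephrins and an Eph receptor. Sema3f had 125, 100 and 123 scaled CPM at low and 341 and 380 at high flow, a fall of 1.64 (adjusted p = 0.00775 by edgeR's quasi-likelihood test). Ntn1 had 147, 46.5 and 69 against 382 and 399, a fall of 2.16 (0.0339), and Ephb4 146, 116 and 104 against 252 and 297, a fall of 1.17 (0.0401). Low-flow and high-flow libraries did not overlap for any of the 3. Efnb2 had 264, 240 and 186 against 460 and 593, a fall of 1.20 (0.0398), and Efna5 135, 78.6 and 141 against 274 and 408, a fall of 1.53 (0.0479). Sema6b, a membrane semaphorin that binds A-type plexins, had 37.9, 73.2 and 54.3 at low and 22.5 and 20.2 at high flow, a rise of 1.37 (0.0472). In the same control libraries the endothelial markers took 0.590% to 1.20% of the counts at low and 1.68% to 1.74% at high flow, with 1 of 12 higher and 3 lower. Macrophage markers took 0.0335% to 0.161% against 0.00628% to 0.0145%, and 2 of 14 rose (median log2 fold-change of the 14, 3.82). Neutrophil markers took 0.00212% to 0.0315% against 0.000969% to 0.00207%, of which edgeR called 0 of 8 and 2 had an unadjusted p under 0.05. The part of these cells was not tested.

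Of the other genes that had moved in all 3 comparisons at 48 hr, Epha4 had 41.8, 9.2 and 18.9 scaled CPM at low against 42.2 and 35.8 at high flow (log2 fold-change −0.74, adjusted p = 0.398 by edgeR's quasi-likelihood test), and Sema3d 11.7, 0 and 2.83 against 22.4 and 25.7 (−2.30, 0.258). Ephb6 had 25.1, 6.16 and 11 against 19.1 and 23.4. In each of these genes low-flow library 1 was the highest of the 3 low-flow libraries, and it carries an earlier date in its read file name than the others. Sema4a had 5.86, 46.2 and 5.07 against 0 and 0.469, with no overlap and an adjusted p of 0.0531. Without low-flow library 1, 12 guidance genes passed, among them Epha4, Sema3d and Sema4a. With the date as a block, an alternative added after the data were seen, 10 passed. The 2.4% of all genes called belongs to the main fit and does not apply to these counts. No guidance gene passed without high-flow library 4 or 5, and 1 (Sema3f) passed without low-flow library 4 or 5.

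In EC-KO mice 1 of 46 guidance genes passed between low and high flow, Sema3f, which fell, where 1.09% of all genes were called (0.352% higher, 0.741% lower), and the median was −0.17 against 0.01. The count was 5 by DESeq2, 5 with the replicate number as a block and 4 with the 2 groups fitted alone. It was 4 with the date as a block and 5 without the 2 low-flow libraries of the earlier date, both chosen after the data were seen. The 1.09% of all genes called belongs to the main fit and does not apply to these counts. Sema3f had 143, 140 and 122 scaled CPM at low and 379 and 367 at high flow, a fall of 1.47 (adjusted p = 0.0117 by edgeR's quasi-likelihood test). The call was lost without any 1 of the 5 libraries, although the libraries did not overlap and the log2 fold-change stayed between −1.51 and −1.42. Ntn1 had 129, 84.5 and 89 against 369 and 389 (−1.91, 0.0592), Ephb4 176, 134 and 109 against 295 and 290 (−1.06, 0.0671) and Efnb2 213, 282 and 205 against 380 and 484 (−0.89, 0.116). These 3 did not overlap between flows either, and did not pass. Efna5 had 121, 119 and 148 against 131 and 254, and Sema6b 34.9, 35 and 29.2 against 21.1 and 23.1. Endothelial markers took 0.861% to 1.04% at low and 1.79% to 1.84% at high flow in EC-KO mice, with 1 of 12 higher and 2 lower, and macrophage markers 0.107% to 0.186% against 0.00965% to 0.0116%, with 1 of 14 higher and called (median log2 fold-change 4.25), and their part was not tested.

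Between EC-KO and control, edgeR called 0 of 46 guidance genes at low flow, where 0% of all genes were called, and 0 at high flow, where 0.00749% were called. DESeq2 called 0 in both, and 1 and 2 guidance genes had an unadjusted p under 0.05 by edgeR, against 880 and 293 of all genes. Rbfox2 itself did not pass in either comparison, although its libraries did not overlap. By edgeR's quasi-likelihood test its log2 fold-change was −2.61 at low flow (adjusted p = 0.692) and −2.06 at high flow. A count of 0 here thus cannot show that no gene differed. The paper reported genes that changed with the deletion at low flow by DESeq2. Sema6b had 34.9, 35 and 29.2 scaled CPM in EC-KO against 37.9, 73.2 and 54.3 in control low-flow libraries (log2 fold-change −0.74, adjusted p = 0.692 by edgeR's quasi-likelihood test), which did not overlap, and it passed without control low-flow library 1. The difference in flow response between genotypes, tested as an interaction, was called for 0 of 46 guidance genes and 0% of all genes by edgeR. DESeq2 called it for 0 guidance genes, and by edgeR 1 had an unadjusted p under 0.05, against 538 of all genes. Thus the counts of 6 and 1 in the genotypes were not shown to differ.

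**Figure D4:**
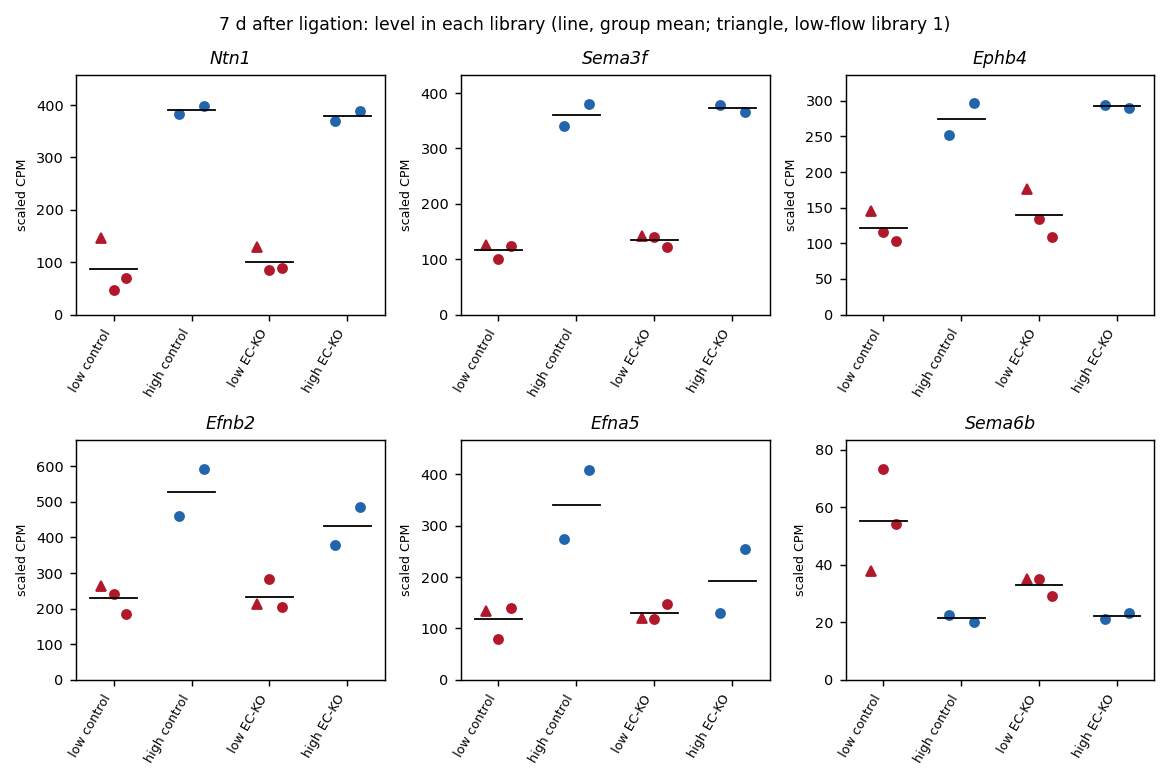
Scaled CPM of Ntn1, Sema3f, Ephb4, Efnb2, Efna5 and Sema6b in each 7 day library of control and EC-KO mice at low and high flow, with triangles for low-flow library 1 of each genotype, which carries an earlier date. Low-flow libraries of Sema3f lie at 100 to 125 in controls and 122 to 143 in EC-KO, below the 341 to 380 of the high-flow libraries.

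Co-receptors and signalling partners that the symbol rule does not take were described from a list of 44 genes, of which 43 were in the table. Between low and high flow, 5 of 29 tested rose and 9 fell in untreated mice, 7 of 42 rose and 14 fell with IgG, and 3 of 42 rose and 11 fell with PBS liposomes. The share of the list called was thus 48.3%, 50% and 33.3%, where 46.2%, 40.5% and 35% of all genes were called. With anti-GPIba against IgG 3 of 42 rose and 3 fell, or 14.3%, where 16.5% of all genes were called. Between flows at 7 days 3 of 42 passed in each genotype, or 7.14%, where 2.4% of all genes were called in controls and 1.09% in EC-KO. L1cam, an adhesion molecule that joins the neuropilin-1 receptor complex, fell by 2.49, 3.91 and 4.01 on the log2 scale in the 3 comparisons, and by 2.33 and 1.90 at 7 days in control and EC-KO mice. It rose by 1.59 with anti-GPIba against IgG. Dpysl3, a collapsin response mediator that acts downstream of semaphorins, rose by 2.85, 3.61 and 2.76 and fell by 2.32 with anti-GPIba. Cd72, a receptor of Sema4d on immune cells, rose by 2.60 in untreated and by 4.80 in IgG-treated mice and fell by 3.52 with anti-GPIba. Rras, a small GTPase that plexins inactivate, fell by 2.10, 1.08 and 0.92, and Fyn, a kinase that acts with plexins and Eph receptors, fell by 1.17, 0.98 and 1.16. Nrp1, the co-receptor of class 3 semaphorins, rose by 1.36 with anti-GPIba (adjusted p = 0.0143 by edgeR's quasi-likelihood test).

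The cultures have 1 library a condition, so their values carry no test. The 6 cultures of the later date lay above all 24 artery libraries of that date in 7 guidance genes and below all of them in 3, or 12.3% and 5.26% of the 57. Of the 14487 genes of the table with a mean of at least 1 CPM in some condition, 2.54% lay above and 2.07% below in the same way. Sema3e, the ligand of Plxnd1, had 72.7 to 215 CPM in culture and 0 to 0.784 in arteries, Unc5b 65.3 to 133 against 0.577 to 13.6, and Plxnb2 184 to 486 against 20.7 to 114. Ntn1 had 8.44 to 19.1 CPM in culture and 22.1 to 514 in arteries, and Sema6a 9.47 to 26.2 against 30.9 to 190. Within the later date, the lowest culture of the first 3 genes was thus above the highest artery library, and the reverse held for Ntn1 and Sema6a. The eGFP+ culture, of the earlier date, did not lie below all arteries of its date in these 2 genes. It had 9.22 CPM of Sema6a against 8.33 in untreated low-flow pool b, and 3.80 FPKM of Ntn1 against 1.05 to 5.62 in the untreated low-flow pools.

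In the TetOn-SV40 line, kept for 48 hr in each condition, Sema4a had 0.341 CPM without additions and 5.65 CPM after 10% plasma. It had 1.57 CPM after platelets plus macrophages, and 11.3 CPM when all 3 were added. Sema3d had 25.0 CPM without additions, 9.25 after platelets plus macrophages, 1.65 with plasma and 0.61 with all 3. Sema3b had 10.1 and 2.49 CPM, 0 counts and 0.183 CPM (3 counts) in the same order, and Sema6b 1.02, 1.92, 6.44 and 9.94 CPM. Both libraries with plasma were higher in Sema4a and Sema6b and lower in Sema3d and Sema3b than both without it, and the library with platelets plus macrophages lay between these and the untreated one. Slit2 had 2.93, 5.84, 3.29 and 32.9 CPM in that order, and Slit3 41.1, 26.2, 11.4 and 2.32. In the sorted cultures, Rbfox2 had 4.53 CPM in EC-KO and 62.6 CPM in control cells. Sema3c had 0 counts in EC-KO and 8.31 CPM in control, Sema3d 0 counts and 4.19 CPM, Ephb6 0.101 (1 count) and 3.92 CPM, Plxna3 8.76 and 1.44 CPM, and Sema3a 6.85 and 1.51 CPM.

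Levels of several guidance genes differed between the 11 artery libraries of the earlier year, as dated in the names of their read files (the untreated pools and the single pools with 100 bp reads), and the 24 of the later year. For 7 of the 57 genes no library of one set lay within the range of the other, whatever the condition (Ntn4, Sema6b, Sema3f, Plxna4, Ephb4, Efnb1 and Efna5). These are 12.3% of the guidance genes, and the same held for 14.8% of the 14487 genes with such a mean. In the 3 untreated high-flow pools of the earlier set and the 4 high-flow pools of IgG-treated and PBS liposome-treated mice of the later set, the mean of Ntn4 was 0.591 and 164.5 CPM, that of Sema6b 1.085 and 19.7, that of Sema3f 52.9 and 364.7, and that of Efna5 1425 and 230.8. Ntn4, Sema6b and Sema3f were thus higher and Efna5 lower in the later set. Trimming of the reads of 12 later libraries to 100 bp moved the median of 40 guidance genes with at least 1 CPM by at most 0.40 on the log2 scale. Across 47 guidance genes, the log2 ratio of the later to the earlier set and the GC content of the transcript had a Spearman rho of 0.58, and 0.15 across 12337 genes, given as a description, since all genes share the same libraries. In these high-flow pools the treatment of the mice also differed between the sets. At low flow, PBS and clodronate liposomes were given in both sets. There Ntn4 had 1.69 and 1.42 FPKM in the single earlier pools, against means of 79.8 and 93.6 in the later ones. Efna5 had 675.5 CPM in the earlier PBS liposome pool and 103.1 and 64.8 in the later ones. The part of the treatment was not tested.

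**Figure D5:**
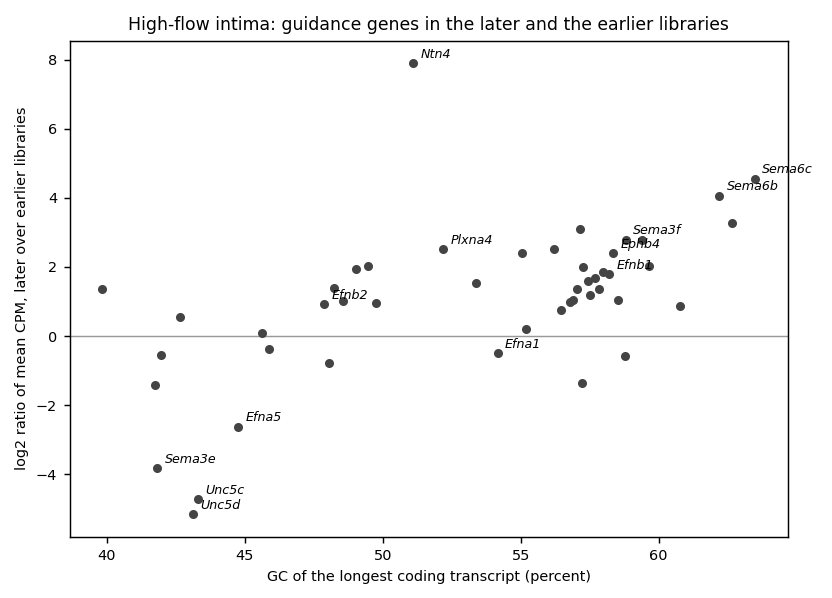
GC content (%) of the longest coding transcript of each guidance gene (horizontal) against the log2 ratio of its mean CPM at high flow (48 hr) in the later libraries to that in the earlier ones (vertical), 1 point a gene. Ntn4 lies highest, at 7.90, and Efna5 at −2.63.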

How the data were processed

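The authors sequenced low-input (SMARTer) libraries, mapped reads to mm9 (STAR 2.5.1b, with TopHat named for the untreated pools) and estimated expression with RSEM 1.2.15. They deposited expected counts per gene without normalization, with 5.20% to 19.3% of the values of a library not whole, and 1 effective length a gene. Of 204 value columns, 42 hold the libraries used, 12 hold trimmed reads used as a check, and 150 were not used, among them second runs and the authors' RPKM. The 1 entry without a gene name was left out.

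Counts were rounded and fitted over all genes with edgeR 4.0.16 in R 4.3.3 (filterByExpr, TMM, quasi-likelihood test, Benjamini-Hochberg adjustment, adjusted p under 0.05), for the untreated pools by pairs of groups and for the 7 treated groups and the 4 groups at 7 days in 1 fit each. Scaled CPM are comparable within 1 such set only. FPKM were computed from the deposited counts, effective lengths and library totals. DESeq2 1.42.0, other scalings, no filter, a second criterion of 1 on the log2 scale, replicate blocks and left-out libraries were the alternatives. Other values used scipy 1.17.1, numpy 2.4.6 and pandas 2.3.3 in Python 3.11.15. The tests were checked on simulated data. Floors of 3 counts cover counting error only.

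The columns at 7 days carry the numbers 1, 4 and 5, and the untreated pools carry letters. No 2 replicates were duplicates, since their counts differed by 10.1 or more times the sampling noise (chi-square per degree of freedom, 24 pairs). Gene coordinates are those of GENCODE vM1 on NCBIM37, the assembly of mm9, which held 1 entry for 56 of the 57 genes. Exons of 10 genes overlap those of another gene (Efna4, Epha1, Ephb1, Ephb4, Ntn1, Ntn3, Plxna1, Plxna4, Plxnb1 and Unc5a), and the options listed for RSEM name no strand setting, although the untreated pools were mapped as first-strand libraries, so reads of these genes and their neighbours cannot be told apart there. Promoter windows come from RefSeq on GRCm38.p6 by symbol, the first where a gene had several (11 genes).

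Full values were given for called genes of largest change in each direction, for a list of guidance genes known in endothelium and for the most abundant of each family. In groups of 1 library, genes were named at a 4-fold difference and at least 1 CPM. The genes, the lists of markers and partners and this rule were chosen with earlier results of these data known.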

Additional observations from a re-analysis of the deposited data

Results flagged for a closer look

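The difference between the flow responses of Plxna1, an A-type plexin, in IgG-treated and PBS liposome-treated mice drew attention because all pools of one treatment moved one way and all pools of the other the opposite way. Its log2 fold-change of low against high flow was −0.40 with IgG, with 28 and 21.9 scaled CPM at low and 35.5 and 30.5 at high flow, and 0.88 with PBS liposomes, with 34.5 and 29.4 at low and 19.8 and 14.9 at high flow. The fold-changes differ by −1.28, and the difference itself was not tested. The call with PBS liposomes was lost without low-flow library 1 (0.76) or 2 (1.00) or high-flow library 2 (0.69).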

How the results depend on the processing

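For the untreated pools no paired analysis was possible because they carry letters and no numbers that would match low-flow to high-flow pools. In treated mice the correlations of same-numbered deviations were −0.18 to 0.60, with 0.52 to 0.60 among the 3 liposome groups and 0.53 between low-flow IgG and clodronate. At 7 days they were −0.05 to 0.24. With 2 shared numbers a group and no label that ties them, the libraries were not taken as pairs. With a replicate block all the same, 24 guidance genes were called with IgG, 14 with PBS liposomes, 10 with anti-GPIba and 0 with clodronate, and the counts went from 6 to 10 in 7 day controls and from 1 to 5 in EC-KO. Against sham arteries, 6 of the 11 calls had a log2 fold-change of at least 1. The second sequencing run of the untreated pools, and the sum of both runs, were not run. Fitting the groups alone gave 17 for anti-GPIba, 0 for 7 day controls and 4 for EC-KO. DESeq2 gave 1 for anti-Gr1, 3 for clodronate and 5 for EC-KO, where no filter gave 2. With the 2 low-flow libraries of the earlier date left out, chosen after the data were seen, controls gave 12 and EC-KO 5, and with the date as a block 10 and 4. Leaving out 1 library gave 11 to 16 calls in untreated mice, 7 to 15 against sham, 9 to 21 with IgG, 8 to 13 with PBS liposomes, 0 to 1 with anti-GPIba, 0 to 3 with clodronate, 0 to 12 in 7 day controls, 0 to 0 in EC-KO and 0 to 3 between the genotypes at low flow, with a group left at 1 library assumed to vary like the others. Of 1107 fold-changes of named genes under these alternatives, 904 kept direction and side of the threshold, 156 lost the threshold (128 of them with a library left out), 47 gained it and 0 changed sign. The causes were not tested. Shares of all genes called under these alternatives are not given, so their counts are not set against the rate over all genes. Low counts limit what can be said of Slit2, Slit3, Sema3a, Sema3c and Plxnb1.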
